A study of Mus musculus with 72 samples.

Results

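At 48 h of activation without glutamine, mouse CD8+ T cells still carried 2070 stretches of acetylated chromatin away from gene starts. These stretches were chosen by the authors' deposited lists of H3K27ac peaks. Each is a peak of the vehicle list that shared at least 1 base with a peak of the no-glutamine list and lay more than 1000 bases from the start of every gene in the deposited counts table. These kept distal peaks were 21.4% of the 9681 vehicle peaks and 51.5% of its 4019 distal peaks. Of the other vehicle peaks, 1949 were distal and had no peak over them without glutamine, 3280 lay at promoters and were kept, and 2382 lay at promoters and were not. Both H3K27ac lists chose the kept distal peaks, so their H3K27ac values are given as a description, with no test. Coordinates are those of mouse build mm10.

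The cells came from OT-I mice, which carry a transgenic T cell receptor for SIINFEKL, a peptide of ovalbumin. Splenocytes freed of red cells were set up in RPMI with 10% serum, with 10 ng/mL of the peptide and 100 IU/mL of human IL-2. The 48 h groups were medium without glutamine, 1 µM CB-839, which inhibits the enzyme glutaminase, 1 µM DON, an analogue that blocks many enzymes using glutamine, and vehicle. RNA-seq also covered these groups at 4 h and 24 h and unstimulated cells, with 4 libraries a group, and each CUT&RUN list merged 2 replicates. CUT&RUN cuts and releases the DNA that an antibody marks, here acetylated or trimethylated histone H3. Every group carries the transgenic receptor, and 1 vehicle group serves all treatments. The labels give no sorting step and name no animal or culture for a library, so p-values measure only the spread between these libraries, which may be technical. The RNA was bulk, so fewer cells of a type and less RNA per cell cannot be told apart.

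H3K27ac, an acetyl group on a lysine of the histone H3 tail, is found at active promoters and enhancers. Enzymes such as p300 and CBP write it with acetyl-CoA, histone deacetylases remove it, and the Polycomb complex can instead methylate the same lysine to H3K27me3, a mark of silent genes. Enhancers often lie in introns or between genes, and T cells are known for broad, dense stretches of H3K27ac around the genes of their lineage.

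Sequence was read where a RefSeq promoter window, which runs from 250 bases before to 50 after a RefSeq start (GRCm38.p6), lay wholly inside a kept distal peak. There were 287 such windows of 32851, in 237 peaks and at 244 genes. They mark starts inside or outside a gene that the counts table, with 1 start a gene, does not hold. Of 16 genes of the lists used below with such a window, 6 are shown, picked after values were seen as well-known genes of T cells or amino acid transport, so that the letters under such peaks can be read: the signal transducers Stat4 and Stat5b, the inhibitory receptor gene Ctla4, the transcription factors Foxp1 and Lef1, and Slc3a2, the heavy chain of amino acid transporters. Each runs 5′ to 3′ on the strand named, and capitals mark matches, on either strand, to the motif letters spelled out after them. The Stat4 window lies at chr1:52007990-52008289 on the plus strand, in the peak from 52007252 to 52015708. The Stat5b window lies at chr11:100822521-100822820 on the minus strand, in the peak from 100821617 to 100826550. The Ctla4 window lies at chr1:60908775-60909074 on the plus strand, in the peak from 60907253 to 60915414. The Foxp1 window lies at chr6:99266466-99266765 on the minus strand, in the peak from 99263187 to 99267420. The Lef1 window lies at chr3:131156044-131156343 on the plus strand, in the peak from 131154885 to 131161063. The Slc3a2 window lies at chr19:8713848-8714147 on the minus strand, in the peak from 8711860 to 8714297.
Stat4: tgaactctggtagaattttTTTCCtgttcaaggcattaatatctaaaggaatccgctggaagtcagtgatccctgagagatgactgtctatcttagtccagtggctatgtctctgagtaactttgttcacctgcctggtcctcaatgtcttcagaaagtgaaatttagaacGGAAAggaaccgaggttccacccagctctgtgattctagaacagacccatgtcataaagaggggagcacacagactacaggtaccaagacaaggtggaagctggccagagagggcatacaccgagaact
Stat5b: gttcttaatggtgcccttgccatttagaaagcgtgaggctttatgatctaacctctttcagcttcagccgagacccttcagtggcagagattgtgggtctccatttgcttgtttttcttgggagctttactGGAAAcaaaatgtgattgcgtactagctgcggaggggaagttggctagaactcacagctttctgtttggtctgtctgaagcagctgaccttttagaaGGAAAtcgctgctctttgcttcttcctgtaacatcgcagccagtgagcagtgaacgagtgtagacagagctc
Ctla4: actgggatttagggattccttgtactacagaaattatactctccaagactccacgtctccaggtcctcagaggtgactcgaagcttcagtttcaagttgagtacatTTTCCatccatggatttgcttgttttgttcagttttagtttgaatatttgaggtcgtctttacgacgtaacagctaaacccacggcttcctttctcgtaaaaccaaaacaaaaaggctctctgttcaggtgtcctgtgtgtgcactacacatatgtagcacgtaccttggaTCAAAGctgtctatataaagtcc
Foxp1: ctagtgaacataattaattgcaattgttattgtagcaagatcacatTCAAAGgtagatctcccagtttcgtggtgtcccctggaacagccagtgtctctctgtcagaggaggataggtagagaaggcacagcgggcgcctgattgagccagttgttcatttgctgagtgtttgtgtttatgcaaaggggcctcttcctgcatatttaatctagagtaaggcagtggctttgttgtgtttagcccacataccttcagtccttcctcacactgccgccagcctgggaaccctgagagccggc
Lef1: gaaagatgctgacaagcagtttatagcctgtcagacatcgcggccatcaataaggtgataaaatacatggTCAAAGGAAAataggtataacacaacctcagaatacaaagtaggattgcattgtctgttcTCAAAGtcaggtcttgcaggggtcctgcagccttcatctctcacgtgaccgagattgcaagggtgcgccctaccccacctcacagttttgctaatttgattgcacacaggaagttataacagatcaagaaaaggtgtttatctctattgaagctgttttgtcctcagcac
Slc3a2: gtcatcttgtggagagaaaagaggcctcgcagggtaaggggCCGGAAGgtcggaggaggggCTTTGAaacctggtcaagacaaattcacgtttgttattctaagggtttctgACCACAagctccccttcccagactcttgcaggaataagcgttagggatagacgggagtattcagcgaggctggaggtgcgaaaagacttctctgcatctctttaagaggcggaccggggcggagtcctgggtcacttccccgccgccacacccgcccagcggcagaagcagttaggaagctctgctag

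The motifs searched were TGANTCA for AP-1, TGTGGT for RUNX, GGAAA for NFAT, CCGGAAG for ETS, CTTTGA for TCF and LEF, and TGATGNAA for ATF with C/EBP, factors that act in T cell activation, identity or amino acid stress. Matches were counted on both strands, and matches of different motifs may share bases, as in the Lef1 window. The Stat4 and Stat5b windows each held 2 NFAT matches, and the Foxp1 window held 1 TCF and LEF match. The Ctla4 window held 1 NFAT match with 1 TCF and LEF match, and the Lef1 window held 1 NFAT match with 2 TCF and LEF matches. The Slc3a2 window held 1 RUNX, 1 ETS and 1 TCF and LEF match. The RUNX letters stood in 17.8% of the windows in kept distal peaks, 11.9% of those in kept promoter peaks and 16.8% of all RefSeq windows. The NFAT letters stood in 65.2%, 59.1% and 61.3% of the same sets, and the AP-1 letters in 8.01%, 4.15% and 7.81%. The TCF and LEF letters stood in 13.9%, 10.7% and 16%, and the ATF with C/EBP letters in 3.83%, 2.02% and 3.97%. The ETS letters stood in 11.1% of the windows in kept distal peaks, 20.9% in kept promoter peaks and 8.86% of all windows. In the 148 windows inside distal peaks that were not kept, the shares were 11.5% for RUNX, 54.7% for NFAT, 6.08% for AP-1, 15.5% for TCF and LEF, 0.676% for ATF with C/EBP and 10.8% for ETS. Windows in kept distal peaks had a median of 14 CpG and 58% GC, against 23 CpG and 64.2% GC in distal peaks that were not kept, 23 CpG and 62.3% GC in kept promoter peaks and 7 CpG and 52.7% GC over all windows.

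The kept distal peaks were wide and, for distal peaks, strong. Their width ran from 255 to 24318 bases with a median of 2674, against a median of 1526 for the distal peaks that were not kept. Kept promoter peaks had a median of 2241 bases. The vehicle signal, the authors' value for a merged peak, which equals the sum of its 2 replicate values, had a median of 9.66 and ran from 7.76 to 27.98. Its median was 8.71 in distal peaks that were not kept and 10.2 in kept promoter peaks. The 2 replicates had medians of 4.64 and 4.65 in the kept distal peaks, and 200 of the peaks had replicate values more than 2-fold apart. Together the kept distal peaks covered 6.90 Mb, and the distal peaks that were not kept covered 3.61 Mb. With all vehicle distal peaks put in 4 equal bins from weak to strong, 34.6%, 45.5%, 52.5% and 73.4% were kept. In 4 bins from narrow to wide the shares were 27.5%, 45.3%, 56.4% and 76.9%. Peaks of the 2 lists were called separately, and the part of width and of the calling threshold in these shares was not tested.

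**Figure D1:**
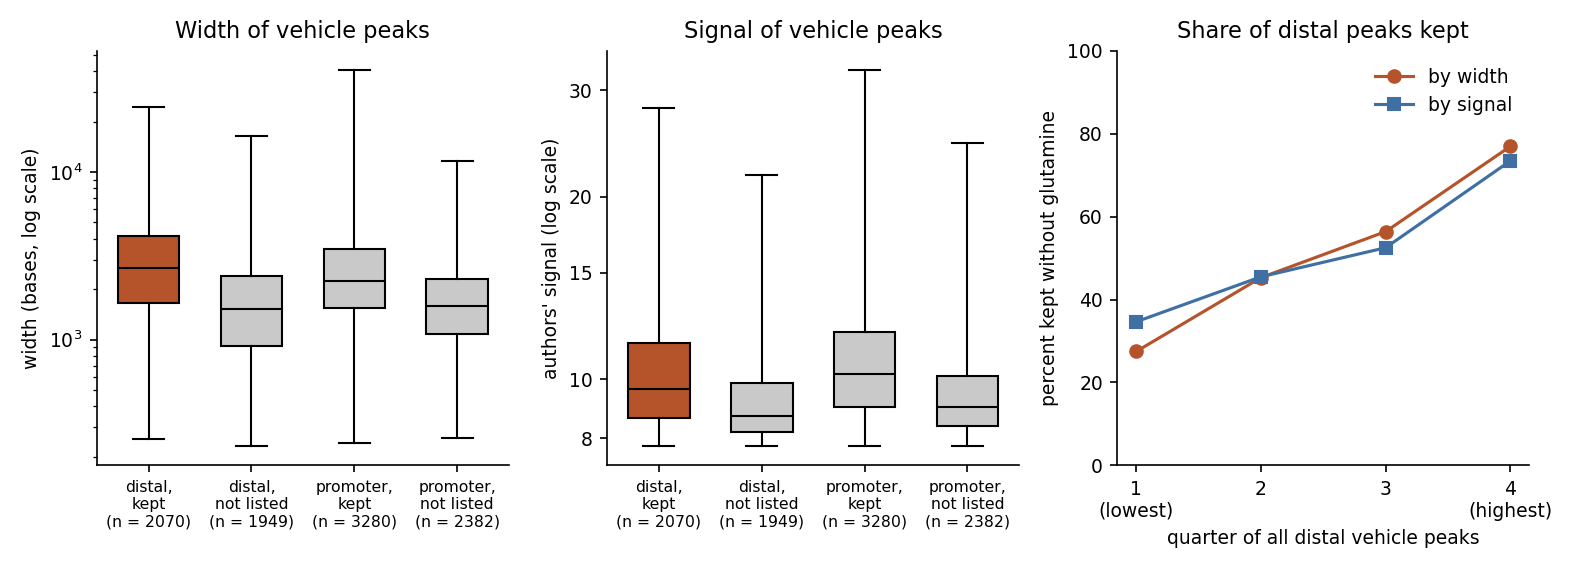
Box plots of width in bases and vehicle signal in 4 sets of vehicle H3K27ac peaks, with whiskers over the whole range. Lines with points give the percent of distal peaks kept in each of 4 equal bins of signal and of width. Kept distal peaks had a median width of 2674 bases against 1526 for distal peaks not kept, and the share kept reached 73.4% in the strongest bin and 76.9% in the widest.

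Without glutamine the same places were covered by 2002 peaks of 6687 in that list. Of the kept distal peaks, 2009 met 1 such peak and 61 met more, up to 4, while 115 of the no-glutamine peaks joined several kept distal peaks into 1. Summed over all no-glutamine peaks, the median kept distal peak had 90.5% of its bases covered. By the same sum, 701 kept distal peaks were covered wholly and 1855 had at least 50% of their bases covered. The smallest overlap was 48 bases, and 4 peaks overlapped by under 100. The no-glutamine peaks over them had a median width of 2927.5 bases and a median signal of 10.3, from 8.16 to 38.6, with replicate medians of 5.03 and 4.91. Across the 2009 peaks that met 1 no-glutamine peak, the signals of the 2 lists correlated weakly, with a Spearman's rho of 0.23 and a Pearson's r of 0.28. These points share libraries and peak width, so the values are a description. The no-glutamine peaks reached within 1000 bases of a gene start in 161 cases. At the edge of the distance rule, the closest kept distal peaks lay 1015, 1017 and 1038 bases from a start, and the nearest kept peaks on the other side lay at 989, 976 and 956 bases. At the edge of the overlap rule, the closest distal peak that was not kept lay 1 base from a no-glutamine peak, 34 lay within 1000 bases, and the median gap was 26049 bases.

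Most kept distal peaks lay in introns. Their centre was in an intron in 1379 peaks (66.6%), between genes in 531 (25.7%) and in an exon in 160 (7.73%). For distal peaks that were not kept the shares were 63.0%, 26.3% and 10.7%. The median distance to the nearest gene start was 13114.5 bases, with a furthest peak at 307209 bases, and the median was 13076 bases in distal peaks that were not kept. By distance, 446 lay under 5 kb from a start, 407 between 5 and 10 kb, 983 between 10 and 50 kb, 184 between 50 and 100 kb and 50 beyond. Against the fuller set of RefSeq starts, 299 peaks (14.4%) lay within 1000 bases of one, and 1771 did not.

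Some of these peaks stood in rows inside single genes. Joining kept distal peaks at gaps of up to 12500 bases gave 1637 groups, of which 1359 were single peaks and 91 held 3 or more, with 337 peaks in all (16.3%). The longest group had 11 peaks at chr6:99367194-99436777, inside Foxp1, a forkhead factor that keeps T cells quiescent, and they covered 43151 of its 69584 bases. Ikzf1, the lymphoid factor Ikaros, had 7 at chr11:11701982-11741309. Groups of 6 lay in Bach2, a repressor that restrains effector genes, at chr4:32330528-32377596, and in Satb1, a chromatin organiser of T cells, at chr17:51805056-51829711. Further groups of 6 lay in Arhgef3, an exchange factor of small GTPases, at chr14:27335390-27385241, in Myh9, a nonmuscle myosin, at chr15:77788395-77838177, in Mbnl1, a splicing factor, with 1 of the 6 outside the gene, at chr3:60468672-60511733, and in Cdk17 at chr10:93164015-93196056. Another group of 6, at chr19:10744556-10795974, had no peak centred in a gene body when predicted genes were left out. Its last peak reached into the 3′ end of Cd6, a T cell surface receptor. Grap2, an adaptor of the T cell receptor, had 5 at chr15:80580614-80619582.

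The next counts go by the gene whose body held the centre of the peak, a view chosen after values were seen. Predicted genes and receptor segments were left out here, unlike in the intron and exon counts above. By this view 1352 kept distal peaks (65.3%) lay in 881 genes, against 1288 (66.1%) of the distal peaks that were not kept. Of these genes, 652 held 1 kept distal peak and 33 held 5 or more. Foxp1, at chr6:98925338-99522721 on the minus strand, held 26, which covered 15.6% of the gene, and 1 distal peak that was not kept. Its 26 peaks were 650 to 10931 bases wide with vehicle signals of 7.93 to 16.3, and lay under 17 no-glutamine peaks with signals of 8.23 to 21.9, the widest of 32291 bases. Bach2, at chr4:32238804-32586108 on the plus strand, held 12 with vehicle signals of 7.88 to 19.2, under 10 no-glutamine peaks of 8.22 to 27.9, and 7 that were not kept. The protein kinase C gene Prkch held 9, under no-glutamine peaks of up to 38.6, and 3 that were not kept. Prkca, another protein kinase C gene, Msi2, an RNA-binding protein, and Cdk17 held 8 each and none that was not kept. Cblb, an E3 ligase that dampens receptor signals, Arhgef3, Hivep2 and Ikzf1 held 7 each. In Ikzf1 they covered 34.5% of the gene, in Grap2 41.7% and in Myh9 52.6%. The 6 in Satb1 lay under a single no-glutamine peak of 32779 bases with a signal of 29.3, of which 1 replicate gave 24.2 and the other 5.12. Atxn1, a transcriptional corepressor, was even, with 6 kept and 6 not kept, and Mbnl1 had 6 kept and 5 not kept.

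**Figure D2:**
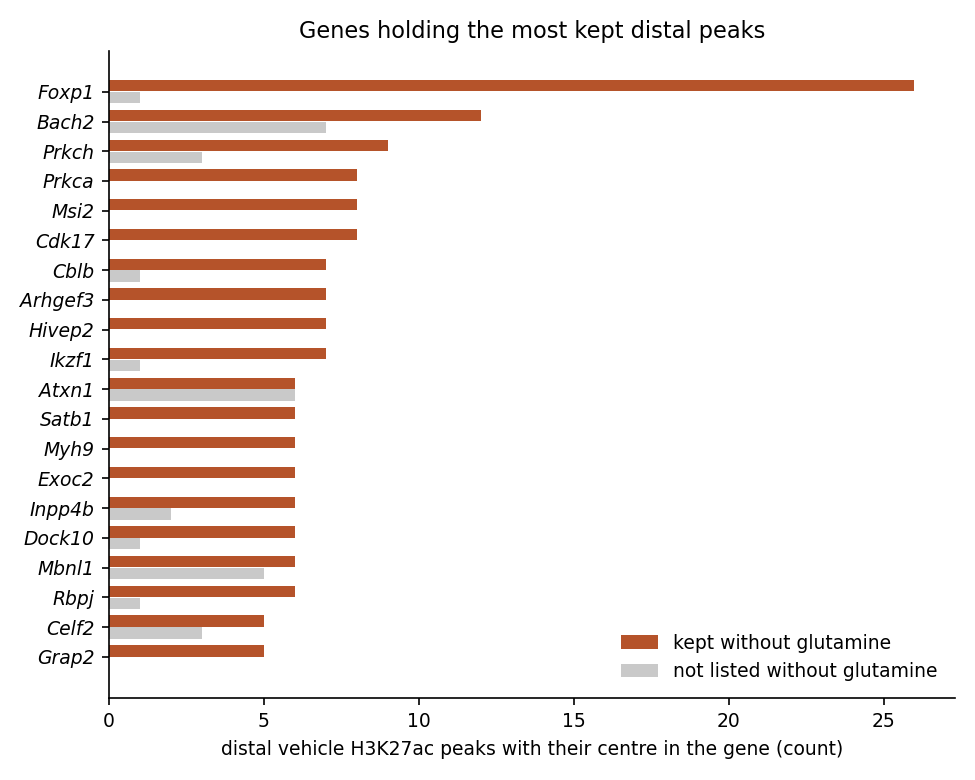
Number of vehicle distal H3K27ac peaks centred in each of 20 gene bodies, split into peaks kept without glutamine and peaks with no no-glutamine peak over them. Foxp1 held 26 kept and 1 not kept, Bach2 12 and 7, and Atxn1 6 and 6.

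The strongest vehicle signals belonged to a few wide peaks. The highest, 27.98, stood at chr1:53773160-53783190 by Stk17b, a kinase that sets the threshold of receptor signals, with replicate values of 22.8 and 5.16. Its no-glutamine peak had a signal of 25.2. By Ptpn1, a tyrosine phosphatase, the peak at chr2:167936845-167961017 had 27.5 in vehicle cells, with replicates of 15.9 and 11.6, and 16.7 without glutamine. The widest of all kept distal peaks, 24318 bases at chr12:107962960-107987277 in an intron of Bcl11b, a factor that fixes T cell identity, had 26.2 in vehicle cells and 16.4 without glutamine. In Lcp1, which bundles actin, the peak at chr14:75175086-75195465 had 24.6 in vehicle cells, and 28.9 without glutamine with replicates of 24.2 and 4.65. Where 1 replicate carries most of a signal, its rank rests on that replicate. Signals of different lists were not put on 1 scale by a stated step, so neither a change nor its absence can be read from these pairs.

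Part of the short H3K27ac lists of the inhibitors fell on these places. The CB-839 list held 117 peaks, and 53 of them (45.3%) lay over 59 kept distal peaks (2.85%). The DON list held 33, of which 14 (42.4%) lay over 17 (0.821%). The CB-839 list met 65 kept promoter peaks (1.98%) and 2 distal peaks that were not kept, and the DON list met 23 (0.701%) and 0. Kept distal peaks under the inhibitor lists were wide, with a median of 5947 bases under CB-839 and 6467 under DON, and had median vehicle signals of 12.97 and 13.96. Both lists met 1 kept distal peak in common, at chr16:10767411-10777043 by Socs1, a brake on cytokine signals, with signals of 21.2 with CB-839, 18.3 with DON and 9.71 with vehicle. The strongest CB-839 peak of this kind, 28.7, lay over chr2:26481381-26500225 in Notch1, a receptor that directs T cell fate. The next, 27.5, lay over chr14:66228804-66233494 in Ptk2b, a tyrosine kinase. CB-839 peaks also lay over the kept distal peak by Ccr7, a chemokine receptor for lymph node entry, at chr11:99160319-99164227 (18.5) and in Hdac7, a histone deacetylase, at chr15:97811174-97835183 (20.4). DON peaks lay over introns of Ptprc, the phosphatase CD45 (27.9 and 21.1), of Dock10 at chr1:80660626-80664053 (20.5), of Prkca at chr11:108267864-108279047 (17.2), of Grap2 at chr15:80596271-80612024 (17.3) and by Mcl1, a survival factor, at chr3:95660898-95669796 (16.4). The inhibitor lists are far shorter than the others, and their part in these overlaps was not tested.

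H3K27me3 was almost absent from the kept distal peaks. The no-glutamine H3K27me3 list of 8795 peaks met 0 of the 2070, the CB-839 list of 12417 met 1, the DON list of 3533 met 1 and the vehicle list of 13556 met 2. Of the distal peaks that were not kept, 10, 13, 3 and 16 met the same lists, and of the kept promoter peaks 4, 7, 1 and 11 did. Over all 4 lists, 3 kept distal peaks met an H3K27me3 peak. In vehicle cells 1 of them lay at chr11:4287616-4293726 by Lif, a cytokine gene. The peak at chr7:44304456-44305598 by Clec11a, a secreted growth factor gene, met both the CB-839 and the DON list.

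For RNA, each kept distal peak was assigned to the nearest start of a gene tested at 48 h, within 100 kb. This placed 1868 peaks at 1321 neighbour genes, 8.17% of the 16173 tested, and left 202 with none. Of the genes, 995 had 1 peak, 208 had 2 and 118 had 3 or more. Nearness does not show that a peak acts on a gene. In 63.6% of all 2070 peaks the assigned gene was also the nearest of any gene. This share counts as matches 50 peaks with no start of any gene within 100 kb. Neighbour genes were well expressed, with a median of 43.5 CPM, counts scaled to library size, without glutamine and 39.7 with vehicle. Genes near only distal peaks that were not kept had medians of 23.7 and 26.3, and all tested genes 14.2 and 13.5. A kept promoter peak was also assigned to 38.9% of the neighbour genes, against 19.9% of all tested genes.

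More neighbour genes rose than fell without glutamine at 48 h. By edgeR's quasi-likelihood test at an adjusted p of 0.05, 466 (35.3%) were higher without glutamine and 332 (25.1%) lower, while over all genes tested 28% were higher and 26.3% lower. Their median log2 fold change was 0.08, against 0.02 over all genes. Among the 118 genes with 3 or more kept distal peaks, 48 (40.7%) were higher and 24 (20.3%) lower, with a median of 0.20. Among the 1074 genes near only distal peaks that were not kept, 299 (27.8%) were higher and 328 (30.5%) lower, with a median of −0.01. Differences of at least 2-fold were called in 81 of the 1321 neighbour genes upward and 45 downward. Over all 16173 genes tested, 1082 were called upward and 747 downward at that size. Scaling by library totals moved the median of all genes to 0.12 and gave 572 higher and 261 lower, with a neighbour median of 0.18. At 24 h, of 1265 neighbour genes tested, 418 (33%) were higher without glutamine and 388 (30.7%) lower, with 30% and 28.9% over all genes. Library totals there gave 507 and 314, with a shift of 0.13 over all genes.

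The inhibitors gave other balances. With CB-839 at 48 h, 199 neighbour genes (15.1%) were higher and 86 (6.51%) lower, against 8.5% and 6.73% of all genes. Genes near only distal peaks that were not kept were higher in 11.55% and lower in 6.43%. In a fit of only the 8 libraries compared the neighbour counts were 97 and 35, and 29 and 14 with a replicate block in that fit. With DON, genes near only distal peaks that were not kept were higher in 34.1% and lower in 39.5%. Of the neighbour genes, 448 (33.9%) were higher with DON and 563 (42.6%) lower, against 35.6% and 35.6% of all genes, with a neighbour median of −0.12. Library totals, which moved the median of all genes to 0.19 for DON, turned that balance to 548 higher and 426 lower, with a neighbour median of 0.07. The 3 treatments share the vehicle libraries, so their counts are not independent. Between vehicle at 48 h and unstimulated cells, called activation below, 495 of 1285 neighbour genes (38.5%) were higher and 611 (47.5%) lower. Over all genes the shares were 38.3% and 45.1%. Library totals gave 411 and 708 there, with a shift of −0.44 over all genes. The labels give unstimulated cells no culture time, IL-2 or peptide, so receptor stimulation, culture and IL-2 cannot be told apart. Vehicle library C at 48 h stood apart in several genes below. Without it, 476 neighbour genes were higher and 373 lower without glutamine, 252 and 162 with CB-839, and 452 and 604 with DON. Shares over all genes are not given here for the fits of 8 libraries or without library C, so their counts have no background.

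**Figure D3:**
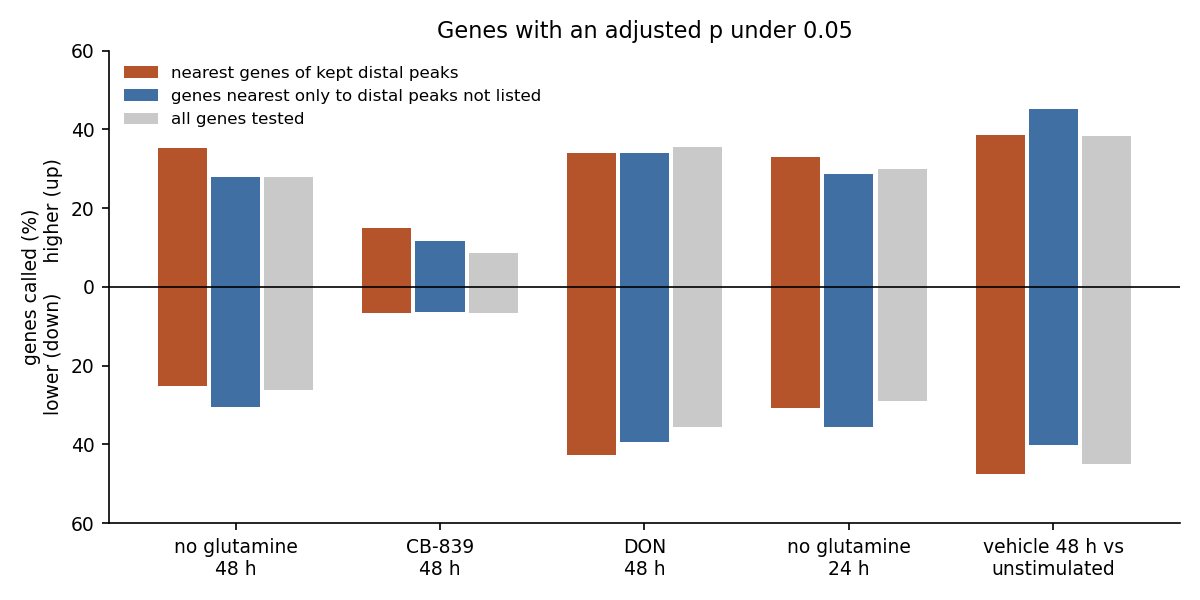
Percent of genes called higher or lower (edgeR, adjusted p under 0.05) in 5 comparisons, for neighbour genes of kept distal peaks, genes near only distal peaks that were not kept, and all genes tested. Without glutamine at 48 h the neighbour genes were called higher in 35.3% and lower in 25.1%, against 28% and 26.3% of all genes.

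The 48 h libraries held 35.2 to 48.2 M counts without glutamine and 35.4 to 44.7 M with vehicle. Of the defining markers of the labelled cells, Cd3e, a chain of the T cell receptor complex, stood at 116 to 130 CPM without glutamine and 104 to 121 with vehicle, and Cd8a, the CD8 coreceptor, at 485 to 509 and 615 to 634. The 9 CD8 T cell markers together took 0.294% to 0.301% of counts without glutamine and 0.311% to 0.332% with vehicle. Of these 9, 5 were called lower without glutamine and 0 higher. The 14 B cell markers took 0.00559% to 0.00710% of counts without glutamine and 0.00202% to 0.00313% with vehicle, with Fcrla at 0 in both and Ms4a1 at 0 with vehicle. The 7 CD4 T cell markers took 0.00355% to 0.00445% and 0.000889% to 0.00109%, with Il17a at 0 in both. The 7 NK cell markers took 0.00475% to 0.00554% and 0.00739% to 0.00946%, and the 12 myeloid markers 0.00568% to 0.00664% and 0.00489% to 0.00806%. Of the CD4 T cell markers, Gata3 (0.48, called) and Il4 (−0.57, adjusted p = 0.192) were neighbour genes, as was the NK cell marker Klrk1 (−0.97, called), while no B cell, myeloid or erythroid marker was. The part of other cells in the RNA results was not tested.

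Of the 12 genes named for the most kept distal peaks in their body, 10 rose without glutamine and none fell, where 28% of all genes tested were higher and 26.3% lower. Over the 867 tested genes with a kept distal peak centred in their body, 347 were higher and 227 lower. Foxp1 had 169.7, 170.0, 164.5 and 171.8 CPM in libraries A to D without glutamine, against 145.2, 161.1, 113.7 and 144.5 with vehicle. All 4 no-glutamine libraries lay above all 4 vehicle ones, and the log2 fold change was 0.26 ± 0.08 (SE, adjusted p = 0.00684). Bach2 had 43.6, 45.4, 45.2 and 46.8 CPM without glutamine, against 34.5, 34.6, 24.6 and 32.8 with vehicle. The groups did not overlap, and it rose by 0.51 ± 0.08 (adjusted p = 2.59e-05). Arhgef3 had 193.1, 190.2, 183.1 and 216.8 CPM without glutamine, against 101.0, 101.1, 84.3 and 102.9 with vehicle, a log2 fold change of 1.01 ± 0.07. Of the others, Msi2 (0.98), Atxn1 (0.86), Prkca (0.55), Hivep2 (0.45), Cdk17 (0.28), Satb1 (0.23) and Cblb (0.22) rose. Satb1 and Cdk17 lost the call without no-glutamine library D, with values of 0.20 and 0.25. Ikzf1 and Prkch, with 7 and 9 peaks, did not pass the test (0.16, adjusted p = 0.0946, and 0.07, adjusted p = 0.28). Ikzf1 passed without vehicle library B, at 0.22.

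Bcl11b, with 3 kept distal peaks in introns (vehicle signals 13.2, 26.2 and 12.9), had 125.0, 118.8, 115.8 and 122.8 CPM without glutamine, against 62.8, 59.9, 54.4 and 63.2 with vehicle. The no-glutamine libraries were all well above the vehicle ones, and the log2 fold change was 1.01 ± 0.05 (adjusted p = 3.05e-11). At 24 h it had 82.2 to 86.5 CPM without glutamine and 43.7 to 53.6 with vehicle. Unstimulated cells had 232.2 to 244.2, and the log2 fold change was −1.99 for vehicle at 48 h over unstimulated cells. Foxp1 (−0.55), Bach2 (−0.95), Arhgef3 (−0.95) and Satb1 (−1.03) were lower in that comparison too, and Cblb (1.03) and Prkca (1.86) higher. DON gave Foxp1 −0.82, Bach2 0.29, Arhgef3 0.75 and Satb1 −0.42, all called, and Bcl11b 0.03, which was not. CB-839 raised Bcl11b by 0.32 and gave 0.04 for Foxp1, 0.15 for Bach2 and −0.01 for Arhgef3, none of them called.

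By the start nearest to each peak, Mbnl1 led the named genes with 9, and its RNA did not pass the test (0.30 ± 0.13, adjusted p = 0.0552), though it did without vehicle library B, at 0.43. Fam208a, with 8, of which 7 lie inside its neighbour Arhgef3, rose by 0.44. Rbpj, the DNA-binding factor of the Notch pathway, had 7 and a log2 fold change of −0.10 (adjusted p = 0.507). Bach2it1, a transcript beside Bach2, had 7 and was at −0.13 (adjusted p = 0.73). Sh3kbp1, an endocytic adaptor with 5, was called at −0.17 (adjusted p = 0.0448), and the call was lost without no-glutamine library A (−0.17), B (−0.16) or C (−0.13) or vehicle library A (−0.15), B (−0.11) or D (−0.18). Mipep, a mitochondrial peptidase with 5, was called at −0.18 (adjusted p = 0.0179), which was lost without no-glutamine library D (−0.14). Sla, an adaptor that lowers receptor levels and that lies inside Tg, had 5 at chr15 between 66785541 and 66856195 and rose by 1.02 ± 0.08. Rasgrp1, an activator of Ras in T cells, had 5 and rose by 0.41. Il7r, the receptor of the survival cytokine IL-7, had 5 peaks 31591 to 66250 bases from its start, at chr15 between 9561767 and 9597299. It had 22.4, 21.8, 23.8 and 18.4 CPM without glutamine, against 54.6, 64.2, 44.4 and 49.3 with vehicle. The groups lay far apart, with a log2 fold change of −1.30 ± 0.10 (adjusted p = 6.32e-09), and 3 of its 5 peaks lay under a single no-glutamine peak with a signal of 18.4.

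**Figure D4:**
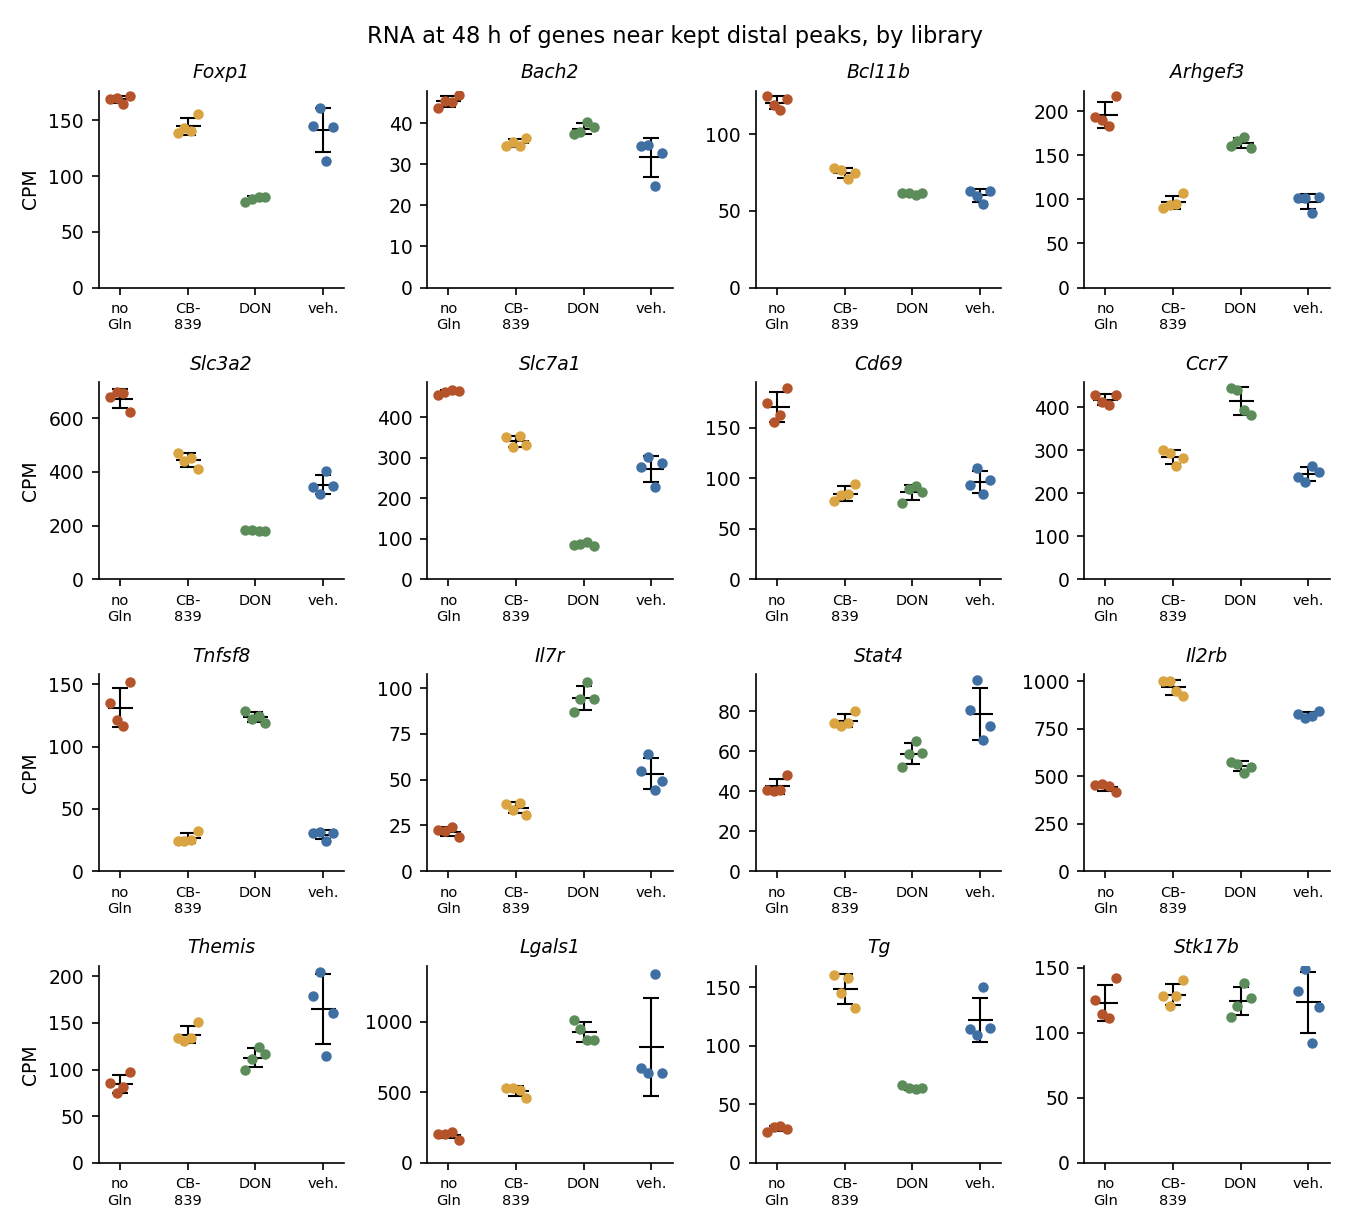
CPM by library (points) with mean and SD (n = 4) for 16 genes near or around kept distal peaks at 48 h, in the order no glutamine, CB-839, DON and vehicle. The 4 no-glutamine libraries lie above all vehicle libraries for Bcl11b and Tnfsf8, below them for Il7r, Stat4, Il2rb, Themis, Lgals1 and Tg, and among them for Stk17b.

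Genes of T cell receptor signalling were split. Of 20 tested, 7 were neighbour genes with 14 kept distal peaks, of which 4 rose and 3 fell without glutamine, against 6 and 8 in the whole list. Fyn, a Src kinase, with 3 peaks in its introns, had 325.0, 316.3, 302.2 and 319.2 CPM without glutamine, against 211.8, 202.9, 187.9 and 216.3 with vehicle (log2 fold change 0.62 ± 0.05). The adaptor Lcp2 rose by 0.41 and Cd6 by 0.20. Themis, which tunes receptor signals and has 3 peaks, had 85.7, 74.6, 80.7 and 97.1 CPM without glutamine, against 179.4, 204.8, 114.9 and 160.2 with vehicle. Every no-glutamine library lay below every vehicle one, with a log2 fold change of −0.96 ± 0.13. Lat and Lck, the adaptor and kinase next to the receptor, fell by 0.32 and 0.18. With DON 1 of the 7 rose and 6 fell, among them Lcp2 (−0.88) and Themis (−0.55), against 8 and 10 of the 20 in the whole list.

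Naive and memory genes gave 8 neighbours of 22 tested, with 17 kept distal peaks, of which 3 rose and 4 fell without glutamine, against 12 and 7 in the whole list. Ccr7, with 4 peaks at chr11 between 99115768 and 99173049 (vehicle signals 9.08 to 11.6), had 427.3, 410.7, 404.4 and 428.0 CPM without glutamine, against 238.0, 226.1, 264.3 and 249.9 with vehicle. The groups did not overlap, and the log2 fold change was 0.77 ± 0.06. Bcl2, a survival factor, rose by 0.69 and Il6st, the shared receptor chain of IL-6 cytokines, by 0.62. Among those that fell were Il7r, Itga4, an integrin chain (−0.40), and Myb, a factor of memory precursors (−0.25). The call for Myb was lost without no-glutamine library B (−0.22), no-glutamine library C (−0.19) or vehicle library B (−0.19). Of the 8 genes, 7 were lower with vehicle at 48 h than in unstimulated cells, among them Il7r (−2.38) and Ccr7 (−1.77). So were 20 of the 22 in the whole list.

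Transcription factors of effector cells gave 14 neighbours of 31 tested, with 24 kept distal peaks, of which 6 rose and 2 fell without glutamine, against 11 and 7 in the whole list. Stat4, which carries IL-12 signals, had 3 intron peaks with vehicle signals of 17.7, 9.53 and 9.48, and its RNA was 40.59, 40.05, 40.66 and 48.02 CPM without glutamine, against 80.6, 95.8, 65.5 and 72.8 with vehicle. It fell by 0.90 ± 0.10 on the log2 scale, and 26.7% of its exon bases are shared with another gene, so its reads may be split. Batf, an AP-1 factor of effector cells, fell by 0.87. Irf2 rose by 0.88, Rel, an NF-kB subunit, by 0.74, Irf4, a factor that scales with receptor signal, by 0.50, Stat5b, which carries IL-2 signals, by 0.28 and Nfatc1 by 0.24. Tbx21, the factor T-bet, had a log2 fold change of 0.08 and Nfkb1 of −0.03, and neither was called. With DON 4 of the 14 rose and 10 fell, against 6 and 21 of the 31 in the whole list. Among those that fell were Batf3 (−3.49), Tbx21 (−2.65) and Irf4 (−1.71).

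Activation and costimulation genes were the list with the largest share of neighbours, 14 of 24 tested, with 22 kept distal peaks. Without glutamine 7 rose and 5 fell, against 10 and 7 in the whole list. Cd83, an activation marker with 4 peaks at chr13 between 43767543 and 43789746, had 46.1, 47.6, 41.3 and 52.8 CPM without glutamine, against 15.2, 19.9, 21.8 and 19.7 with vehicle (log2 fold change 1.30 ± 0.11). Cd69, an early activation marker with 3 peaks at chr6 between 129281831 and 129318002, had 174.5, 155.8, 163.0 and 189.6 CPM without glutamine, against 93.0, 110.6, 84.6 and 98.1 with vehicle (0.82 ± 0.09). In both genes every no-glutamine library was above every vehicle library. The immediate early genes moved the same way, Egr1 by 1.79, Egr3 by 1.60, Nr4a3 by 0.68, Nr4a1 by 0.66 and Nr4a2 by 0.42. The 5 that fell were Tnfrsf9 (4-1BB) at −0.75, Tnfrsf1b at −0.64, Cd44 at −0.55, Icos at −0.44 and Il2ra at −0.27. With DON 3 of the 14 rose and 10 fell, against 4 and 15 of the 24 in the whole list.

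Among amino acid response genes, 8 of 33 tested were neighbours, with 1 kept distal peak each, and 7 rose without glutamine, as did 32 of the whole list. Slc3a2, whose peak is printed above and had a vehicle signal of 11.1, had 679.4, 697.8, 693.9 and 623.4 CPM without glutamine, against 342.5, 318.1, 404.1 and 346.9 with vehicle. With CB-839 it had 409.7 to 472.3 and with DON 179.0 to 184.2. The no-glutamine libraries were the highest and the DON libraries the lowest, with log2 fold changes over vehicle of 0.93 ± 0.06 without glutamine, 0.33 with CB-839 and −0.96 with DON. Slc7a1, an arginine transporter with a peak at chr5:148342306-148344060, had 454.3, 462.3, 465.8 and 463.5 CPM without glutamine, against 276.6, 300.3, 227.4 and 286.4 with vehicle (0.76 ± 0.07). Sesn2, a leucine sensor of the mTORC1 pathway with a peak at chr4:132513721-132514106, had 172.9, 185.4, 183.6 and 168.8 CPM without glutamine, against 57.4, 53.6, 59.1 and 59.3 with vehicle. Its log2 fold change, 1.63, was the largest of the 8. Slc7a5, the leucine transporter that pairs with Slc3a2, rose by 0.79, Psat1, an enzyme of serine synthesis, by 0.68, Slc38a2, a glutamine transporter, by 0.38 and Atf3, a stress factor, by 0.29. Ddit4, a brake on mTORC1, was at 0.23 (adjusted p = 0.0744) and passed without no-glutamine library D (0.28), vehicle library C (0.31) or vehicle library D (0.29). With CB-839 5 of the 8 rose and none fell, against 23 and 0 of the 33 in the whole list. With DON none of the 8 rose and all fell, against 4 and 28 in the whole list.

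**Figure D5:**
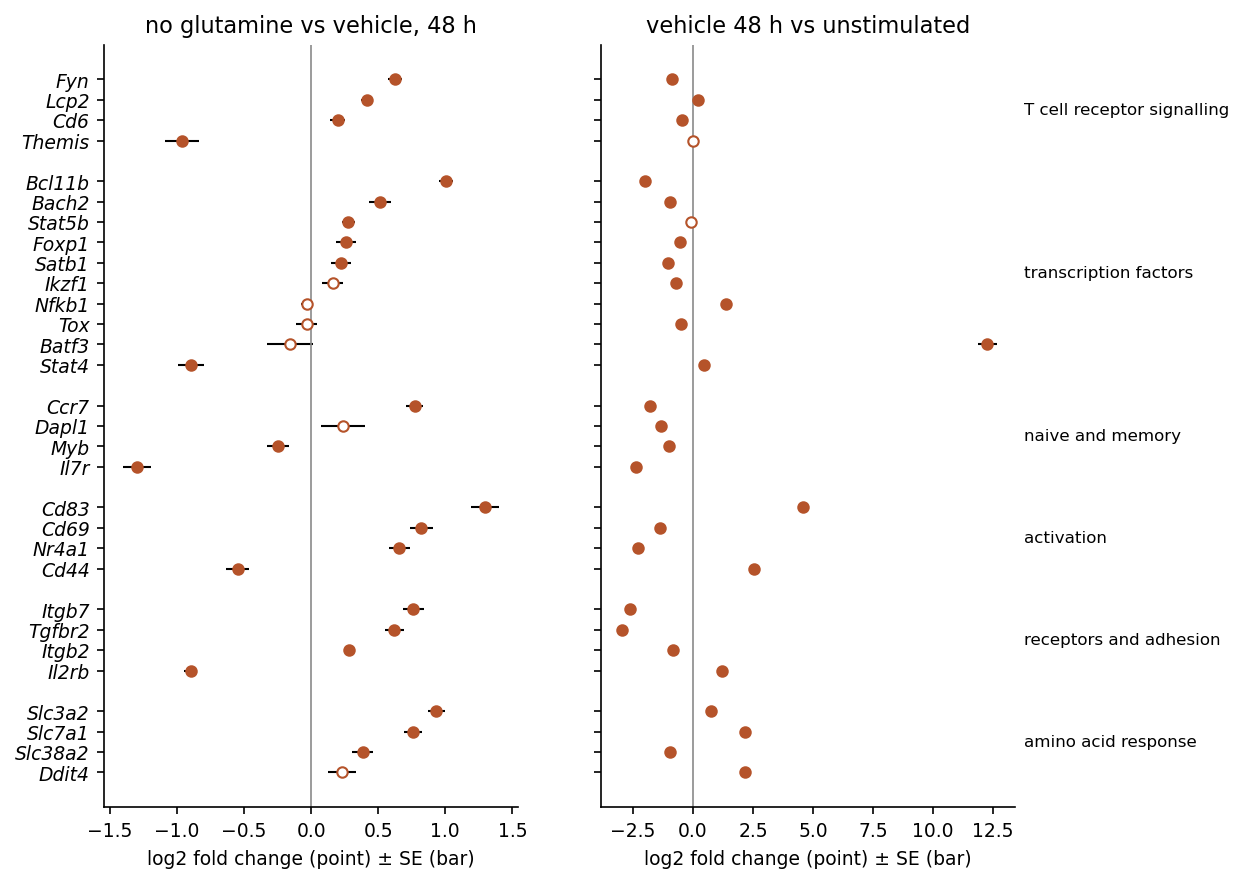
Log2 fold changes with SE of 30 genes near kept distal peaks, by list, for no glutamine over vehicle at 48 h and for vehicle at 48 h over unstimulated cells. Filled points have an adjusted p under 0.05, and open points do not. Cd83 lies at 1.30 without glutamine and Il7r at −1.30.

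Cytokine receptor genes gave 2 neighbours of 18 tested, of which 1 rose and 1 fell without glutamine, against 9 and 7 in the whole list. Chemokine receptor and adhesion genes gave 5 of 16, of which 4 rose and 0 fell, against 7 and 4. Il2rb, the IL-2 receptor beta chain, with a peak at chr15:78508397-78513071, had 452.7, 456.1, 445.6 and 414.8 CPM without glutamine, against 830.0, 806.7, 815.8 and 841.6 with vehicle. The groups were far apart (log2 fold change −0.90 ± 0.05). Tgfbr2, a receptor of the inhibitory cytokine TGF-beta, rose by 0.62 ± 0.07. The integrin chains Itgb7 (0.76) and Itgb2 (0.28) and the adhesion receptor Crtam (0.65) rose. Ccr2, a chemokine receptor, had only 0.743, 0.368, 0.475 and 0.752 CPM without glutamine, against 0.422, 0.374, 0.125 and 0.261 with vehicle, and the groups overlapped. Ccr2 was called at 0.96 ± 0.40 (adjusted p = 0.0486), and lost the call without no-glutamine library A (0.83) or D (0.81) or vehicle library C (0.73) or D (0.90). Cd226, a costimulatory receptor, was at 0.24 (adjusted p = 0.131).

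Of cytokine genes, 3 of 15 tested were neighbours, of which 1 rose and 2 fell without glutamine, against 5 and 4 in the whole list. Lif had 75.5, 84.2, 83.4 and 70.8 CPM without glutamine, against 149.2, 153.7, 175.1 and 154 with vehicle, and fell by 1.01 ± 0.08. Its peak at chr11:4287616-4293726 is the one that met a vehicle H3K27me3 peak, and its vehicle H3K27ac signal was 17.97. Ccl3, a chemokine of effector cells, fell by 1.24 and Xcl1, which attracts dendritic cells, rose by 0.40. Of 14 genes tested in the list of inhibitory receptors and Tox, 3 were neighbours, while 1 rose and 6 fell in the whole list. Lag3 rose by 0.33 and Btla was called at −0.45 (adjusted p = 0.0117), which was lost without vehicle library B, at −0.35. Tox, a factor of chronically stimulated cells with 3 peaks, was at −0.03 (adjusted p = 0.746). Of the granule genes, Srgn, a granule proteoglycan, was the single neighbour of 12 tested, at −0.01, while 9 of the list fell.

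The enzymes that set H3K27 marks gave 3 neighbours of 14 tested, and all 3 rose without glutamine, against 5 that rose and 3 that fell in the whole list. Kdm6b, a demethylase of H3K27me3 with a peak at chr11:69408346-69412058, had 32.5, 31.8, 29.9 and 31.7 CPM without glutamine, against 19.6, 18.9, 17.5 and 20.6 with vehicle (log2 fold change 0.72 ± 0.07). Kat2b, an acetyltransferase, rose by 0.37. Hdac7, whose peak of 24010 bases is among the widest, was called at 0.15 ± 0.06 (adjusted p = 0.0366), and lost the call without no-glutamine library B (0.16), no-glutamine library C (0.14), vehicle library A (0.15) or vehicle library B (0.12). Of glutamine-using genes, Slc38a2 and Gfpt1, which starts hexosamine synthesis, were neighbours. Gfpt1 was called at 0.22 (adjusted p = 0.0278) and lost the call without no-glutamine library A (0.23) or D (0.19).

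The neighbour genes named for the largest differences had log2 fold changes between −2.06 and 2.16. Tnfsf8, the ligand CD30L, with 2 intron peaks of 10.1 and 7.84 in vehicle cells and 14.0 and 15.2 without glutamine, had 135.4, 121.2, 116.9 and 151.9 CPM without glutamine, against 30.67, 31.29, 24.36 and 30.95 with vehicle. Its log2 fold change was 2.16 ± 0.10, and it was 2.07 with DON. Tagap, a GTPase regulator of T cells (1.94, with 23.3% of exon bases shared with another gene), Egr1, the interferon-induced GTPase gene Gbp9 (1.66), the insulin signal adaptor Irs2 (1.65) and Izumo1r, the folate receptor-like surface protein (1.64), were the other largest rises. Tg, known as the thyroid hormone precursor and here the gene around Sla, had 26.6, 30.6, 31.1 and 28.8 CPM without glutamine, against 114.0, 109.2, 149.7 and 115.1 with vehicle, a fall of 2.06 ± 0.09 on the log2 scale. Counts were made without strand, so reads of Tg, of Sla and of other genes that overlap cannot be told apart by strand. Counting was over exons, and Tg shared 1.26% of its exon bases with another gene and Sla 0%. Lgals1, galectin-1, with a peak at chr15:78922268-78923960, had 201.1, 203.5, 220.0 and 164.0 CPM without glutamine, against 674.6, 633.5, 1338 and 633.8 with vehicle, with the high value in vehicle library C (log2 fold change −2.06 ± 0.20). Scd2, a fatty acid desaturase (−1.35), Epsti1 (−1.33), Il7r and Slco4a1, an organic anion transporter (−1.26), were the other largest falls.

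The genes of the strongest kept distal peaks did not share a direction. Stk17b had 125.1, 114.7, 111.2 and 142.1 CPM without glutamine, against 132.4, 148.8, 92.3 and 119.9 with vehicle. The groups overlapped, and the log2 fold change was −0.00 ± 0.11 (adjusted p = 0.995). Ptpn1 fell by 0.26 (adjusted p = 5.22e-04) and Lcp1 by 0.36, while Bcl11b rose. Stk17b was lower with vehicle at 48 h than in unstimulated cells, by 3.26 on the log2 scale.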

How the data were processed

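RNA-seq of 52 libraries in 13 groups of 4 was deposited as whole-number counts per gene, which the authors made from read pairs over exons of GENCODE vM25 (mm10) by featureCounts 2.0.1 with no strand option, per the file headers. The labels' protocols describe stranded libraries. CUT&RUN (20 libraries at 48 h) was deposited as 8 peak lists, 1 a mark and condition, each merging 2 replicates at an IDR of 0.05. The submitters' processing notes name MACS2, Bowtie2 and STAR, without versions. Each deposited peak had a score scaled from its IDR, a −log10 IDR and the authors' signal, the sum of the replicate signals, whose scale and library order are not given in the sources used here.

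Peaks were placed and counted with Python 3.11.15 and pandas 2.3.3, and starts were made 1-based. Genes were filtered by group, scaled by TMM and tested with edgeR 4.0.16 (quasi-likelihood, robust, R 4.3.3), with Benjamini-Hochberg adjustment at 0.05 over all genes tested. The libraries of a time shared 1 fit. Vehicle at 48 h and unstimulated cells were compared in a separate fit of 16 libraries, which also held vehicle at 4 h and 24 h. Libraries had 25.6 to 51 M counts. CPM were computed after TMM scaling. The test was tried on simulated counts first. The alternatives were other scalings, filters, DESeq2 1.42.0, a replicate block, libraries left out, and other distance, overlap and IDR limits.

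The kept distal peaks and gene lists were chosen with earlier results of these data known. Named were the 12 genes with the most kept distal peaks, up to 4 genes of each list, the 6 largest rises and falls among called genes with groups apart and a mean log2 CPM of at least 3, the genes of the 6 strongest kept distal peaks and, after values were seen, the genes with most of them in their body. Other genes named here are the rest of the neighbours in those lists. Predicted genes were left out, and a few genes are not reported here.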

Additional observations from a re-analysis of the deposited data

Results flagged for a closer look

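Of 144 groups of 4 libraries examined among the named genes and the summed share of counts, 16 had 1 library whose gap to the nearest other exceeded Dixon's 95% critical value; chance gives about 1 in 20. Vehicle library C at 48 h accounted for 9 of them. It was the high one for Lgals1 (1338 CPM, against 633.5 to 674.6 in the other vehicle libraries), Batf3 (295.4, against 157.1 to 180.0), Tg (149.7, against 109.2 to 115.1) and Xcl1 (10.57, against 7.563 to 8.027). It was the low one for Arhgef3 (84.31, against 101.0 to 102.9), Tgfbr2 (28.9, against 35.45 to 36.27), Tnfsf8 (24.36, against 30.67 to 31.29) and Tox (18.26, against 22.63 to 23.13). Its share of counts in neighbour genes of kept distal peaks was 11.79%, against 12.79% to 12.99% in the other vehicle libraries; the no-glutamine libraries had 12.83% to 13.14%.

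No-glutamine library D was the high one for Stat4 (48.02 CPM, against 40.05 to 40.66) and Fam208a (23.93, against 18.73 to 19.36) and the low one for Itgb2 (298.6, against 308.0 to 308.7). No-glutamine library C was the high one for Ccl3 (13.01, against 8.008 to 8.698). Vehicle library B was the low one for Cd6 (312.4, against 357.1 to 362.8) and Itgb7 (104.3, against 130.9 to 132.9), and vehicle library D for Mipep (41.58, against 43.12 to 43.41).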

How the results depend on the processing

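The number of kept distal peaks was 1378 at an IDR of 0.03 in both H3K27ac lists and 1825 with 50% of the vehicle peak covered by a single no-glutamine peak. It was 1909 at 2500 bases from a start and 1771 away from RefSeq starts too. An IDR of 0.01 was not run for H3K27ac, because no peak of either list reached it. With 50% overlap the share of kept distal peaks under H3K27me3 was 0% for the vehicle, CB-839 and DON lists, and it was 0% for the vehicle list at an IDR of 0.01.

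Counts of called neighbour genes stayed within 1.5 times under every alternative, except for CB-839. A fit of the 8 libraries compared gave 132 for CB-839, and the same fit with a replicate block gave 43; the cause was not tested. Leaving out 1 library gave 742 to 849 without glutamine, 195 to 414 with CB-839, 970 to 1056 with DON, 765 to 799 without glutamine at 24 h and 1079 to 1117 for activation. Library letters were not treated as pairs, since the labels give them no meaning and the 4 same-letter correlations of deviations were not all above 0.1 in any comparison. They ran from −0.104 to 0.19 without glutamine at 48 h, −0.14 to 0.043 with CB-839, −0.167 to −0.005 with DON, and were all positive without glutamine at 24 h (0.061 to 0.176) and for activation (0.067 to 0.169). The replicate block gave 775 calls without glutamine at 48 h, 267 with CB-839, 1007 with DON, 878 at 24 h, where 806 were called without it, and 1103 for activation.

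Of 1080 values of the named genes under an alternative, 1003 kept direction and call, 47 lost the call, 12 gained it and 18 turned direction. The turns were in genes that were not called. Library totals gave Srgn 0.092, Nfkb1 0.072, Tox 0.066 and Stk17b 0.097, and the replicate block in a fit of 8 libraries gave Stk17b 0.013. Leaving out 1 library gave −0.32 to 0.108 for Bach2it1, −0.181 to 0.012 for Rbpj, −0.046 to 0.047 for Srgn, −0.246 to 0.087 for Batf3, −0.107 to 0.013 for Tox and −0.116 to 0.112 for Stk17b. No depth is known for the peak lists.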
